A study of Caenorhabditis elegans with 24 samples.

Results

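The name dod, for downstream of *daf-16*, is carried by 10 genes of the expression table, and 6 of them are described here: *dod-3* (C24B9.9), *dod-17* (K10D11.1), *dod-19* (ZK6.10), *dod-22* (F55G11.5), *dod-23* (F49E12.2) and *dod-24* (C32H11.12). They were taken by name, with earlier results of these data known, and are 6 of the 45461 rows of that table. In total mRNA, worms under dietary restriction (DR) held 3.79-fold more *dod-24* and 2.01-fold more *dod-23* than *daf-2;rsks-1* mutants, and 4.45-fold less *dod-19*, while *dod-3* and *dod-17* lay close together in both. In translated mRNA, *dod-24* was 8.61-fold and *dod-23* 4.23-fold higher in DR worms than in the mutant, *dod-3* and *dod-17* had higher values short of 2-fold, and *dod-19* had a lower one. *dod-22* was too low to count among these. Measured against worms fed ad libitum (AL), *dod-3* rose and *dod-17*, *dod-19*, *dod-23* and *dod-24* fell under DR as well as in the mutant.

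DAF-2 is the insulin/IGF-1 receptor of the nematode, and RSKS-1 is its ribosomal S6 kinase, which acts downstream of the nutrient sensor TOR. When signalling through DAF-2 is weak, the FOXO transcription factor DAF-16 enters nuclei and activates its targets, while the zinc finger factor PQM-1 leaves them. Genes were sorted by their response to *daf-2* loss into a class that rises, to which *dod-3* is known to belong, and a class that falls, to which *dod-17*, *dod-19*, *dod-22*, *dod-23* and *dod-24* are known to belong. *dod-17*, *dod-22* and *dod-24* encode proteins with CUB-like domains, a group whose members are often induced by intestinal infection.

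Whole *C. elegans* populations were sequenced as polyA RNA, in 4 biological replicates of each of 6 groups. Wild-type N2 worms were placed on an AL or a DR diet of OP50 bacteria from adult day 1 and lysed on day 4, and *daf-2;rsks-1* double mutants were kept on the AL diet. The labels give the food as a log10 CFU of 11 for AL and 9 for DR, and the study's methods print the same density for both diets. The alleles of the mutant are not given in the sources used here, and FUdR against egg production and an antibiotic were in AL and DR plates alike. Each condition was measured as total mRNA, extracted from the lysate, and as translated mRNA, taken from the polysome fractions of a sucrose gradient. DR worms and mutants differ in food and in genotype at once, so the contribution of either cannot be told apart in a direct comparison, and AL worms are the reference that differs from each in 1 respect. In whole worms, fewer cells of a type and less RNA per cell cannot be told apart.

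The libraries held 7960544 to 15658505 reads on genes. Ribosomal RNA took 11.5 to 20.93% of reads in the translated libraries of DR worms and 0.52 to 7.77% elsewhere. Values are CPM scaled by the composition factors of edgeR, which were 0.8079 to 0.8807 in translated libraries of DR worms and 1.1017 to 1.1561 in those of the mutant. The first translated library of the mutant stood apart from its replicates. Its counts differed from theirs by a chi-square per degree of freedom of 7.4 to 12.5, against 1.43 to 2.08 among the other 3 and 1.25 to 2.7 within the other 5 groups, so values without it are given beside the results in translated mRNA. As a check of the label, *rsks-1* mRNA was 13.7 ± 0.866 CPM in total and 14.3 ± 2.51 CPM in translated mRNA of the mutant (SD, n = 4), against 57 to 101 CPM in every N2 library. The *daf-2* transcript was 50.7 to 53.2 CPM in total mRNA of the mutant and 50.1 to 56.8 CPM in AL worms, so its level does not check the label. Every intestine marker of a list of 10 was detected in every group, including *elt-2*, the GATA factor of intestinal cells, at 21.2 ± 1.89 to 26.8 ± 2.4 CPM in total mRNA (SD, n = 4).

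A gene was called changed at an adjusted p under 0.05 (limma, Benjamini-Hochberg over all genes tested) and a difference of at least 2-fold. Log2 differences are on the log2(CPM + 0.5) scale, which understates the change of low genes. Of the 6 dod genes, *dod-3*, *dod-19*, *dod-23* and *dod-24* had a mean of at least 8 CPM and were tested among 8342 coding genes. *dod-17* and *dod-22* fell short of it and were tested among 13327 coding genes with at least 1 CPM in 4 libraries, a filter that *dod-17* met in every library. *dod-22* met it only through translated libraries of N2 worms, where it was highest, which favours a call whenever those libraries are compared with others. Its values are therefore given as a description. It enters no count of calls below, apart from those that describe dependence on the processing.

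Among the group that rises when insulin signalling is low, *dod-3* was high in DR worms and in the mutant alike. In total mRNA, *dod-3* stood at 8.09, 10.1, 7.51 and 8.98 CPM in AL worms, at 45.8, 43.8, 43.7 and 47.1 CPM in DR worms and at 50.3, 52.7, 51.3 and 52.0 CPM in the mutant. All DR and mutant libraries were well above the AL ones, and DR lay just below the mutant without overlap. In translated mRNA, the same gene stood at 21, 24.1, 23.5 and 19.8 CPM in AL worms, at 215, 212, 212 and 204 CPM in DR worms and at 121, 110, 103 and 112 CPM in the mutant. Here DR worms held the higher level, again with no overlap. The difference of DR from the mutant was −0.19 ± 0.06 on the log2 scale (SE, adjusted p = 0.00643, limma) in total mRNA and 0.92 ± 0.06 (adjusted p = 3.98e-16) in translated mRNA, so that its sign turned between the pools, and neither reached 2-fold. Without the library that stood apart, the latter was 0.96.

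*dod-19* was the most abundant of the 6 genes per unit of length in AL worms, with 489 ± 5.55 CPM per kb of exon in total mRNA (SD, n = 4). Its total mRNA was 685, 675, 679 and 693 CPM in AL worms, 31.0, 28.1, 30.1 and 25.5 CPM in DR worms and 126, 133, 129 and 128 CPM in the mutant. The 3 conditions were apart, with DR lowest. Its translated mRNA was 1510, 1480, 1480 and 1410 CPM in AL worms, 177, 168, 180 and 170 CPM in DR worms and 246, 239, 250 and 248 CPM in the mutant. The order was the same in this pool, with DR and mutant closer together. *dod-19* was 4.45-fold lower in DR worms than in the mutant in total mRNA (log2 difference −2.15 ± 0.04, adjusted p = 2.18e-35, limma) and 1.42-fold lower in translated mRNA (−0.50 ± 0.04, adjusted p = 1.22e-14), where the 2-fold limit was not met and the value without the library that stood apart was also −0.50.

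*dod-23* fell in both conditions and further in the mutant. In total mRNA its level was 220, 222, 220 and 217 CPM in AL worms, 39.6, 36.8, 44.9 and 40.7 CPM in DR worms and 17.5, 21.4, 20.4 and 20.4 CPM in the mutant. No groups overlapped, and the mutant was lowest. In translated mRNA its level was 392, 404, 372 and 390 CPM in AL worms, 194, 193, 197 and 189 CPM in DR worms and 50.4, 44.7, 42.9 and 43.6 CPM in the mutant. The gap between DR and mutant widened from 2.01-fold in total mRNA (log2 difference 1.01 ± 0.05, adjusted p = 5.81e-20, limma) to 4.23-fold in translated mRNA (2.08 ± 0.05, adjusted p = 2.12e-30). The call in total mRNA rested at the 2-fold limit: it was lost without DR replicate 3 (0.96) or mutant replicate 1 (0.95) and with 5 other settings, between 0.92 and 0.996. The difference in translated mRNA was 2.13 without the library that stood apart.

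*dod-24*, one of the CUB-like genes, fell in both conditions and further in the mutant. It stood at 169, 164, 161 and 164 CPM in total mRNA of AL worms, at 10.1, 8.97, 8.35 and 9.81 CPM under DR and at 2.07, 2.26, 2.82 and 1.39 CPM in the mutant. In translated mRNA it stood at 382, 381, 356 and 399 CPM in AL worms, at 37.3, 43.9, 39.6 and 43.8 CPM under DR and at 3.98, 4.48, 4.43 and 4.44 CPM in the mutant. Every DR library thus lay between the AL and the mutant libraries in either pool. The gene was 3.79-fold higher in DR worms than in the mutant in total mRNA (log2 difference 1.92 ± 0.09, adjusted p = 7.83e-21, limma) and 8.61-fold higher in translated mRNA (3.11 ± 0.09, adjusted p = 9.56e-28), or 3.07 without the library that stood apart. Among the 8342 genes tested, that placed it 62nd and 29th from the top.

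*dod-17*, another CUB-like gene, was low throughout. Its total mRNA was 8.17, 8.34, 9.06 and 9.66 CPM in AL worms, 1.53, 1.5, 2.29 and 1.69 CPM under DR and 1.92, 1.48, 1.91 and 1.71 CPM in the mutant. DR and mutant libraries were intermixed. Its translated mRNA was 15.8, 18.7, 17.6 and 16.6 CPM in AL worms, 5.10, 6.01, 7.40 and 6.33 CPM under DR and 4.12, 3.05, 2.49 and 2.07 CPM in the mutant. In this pool the DR libraries were all above the mutant ones. The log2 difference of *dod-17* between DR and mutant was −0.01 ± 0.15 (adjusted p = 0.952, limma) in total mRNA and 0.99 ± 0.15 (adjusted p = 1e-07) in translated mRNA, just short of 2-fold. It passed 2-fold without DR replicate 1 (1.07) or 2 (1.003), without mutant replicate 1, the library that stood apart (1.15), or 2 (1.02), with edgeR (1.07) and with a smaller pseudocount (1.09), and was at 0.62 with plain CPM, which has no composition factor.

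*dod-22*, the CUB-like gene that lies between *dod-24* and *dod-17* on the chromosome, was close to the limit of detection, and is therefore given in reads. Total libraries held 9, 11, 9 and 9 reads in AL worms, 7, 9, 4 and 8 reads in DR worms and 2, 7, 2 and 4 reads in the mutant. Translated libraries held 18, 17, 21 and 18 reads in AL worms, 9, 22, 5 and 16 reads in DR worms and 1, 4, 1 and 1 reads in the mutant. DR and mutant overlapped in total mRNA and were apart in translated mRNA. The fitted log2 difference between them was 0.42 ± 0.22 in total and 1.75 ± 0.22 in translated mRNA. With so few reads its size followed the pseudocount, from 1.21 with a pseudocount of 1 to 3.74 with edgeR in translated mRNA, where edgeR put *dod-24* at 3.22.

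**Figure D1:**
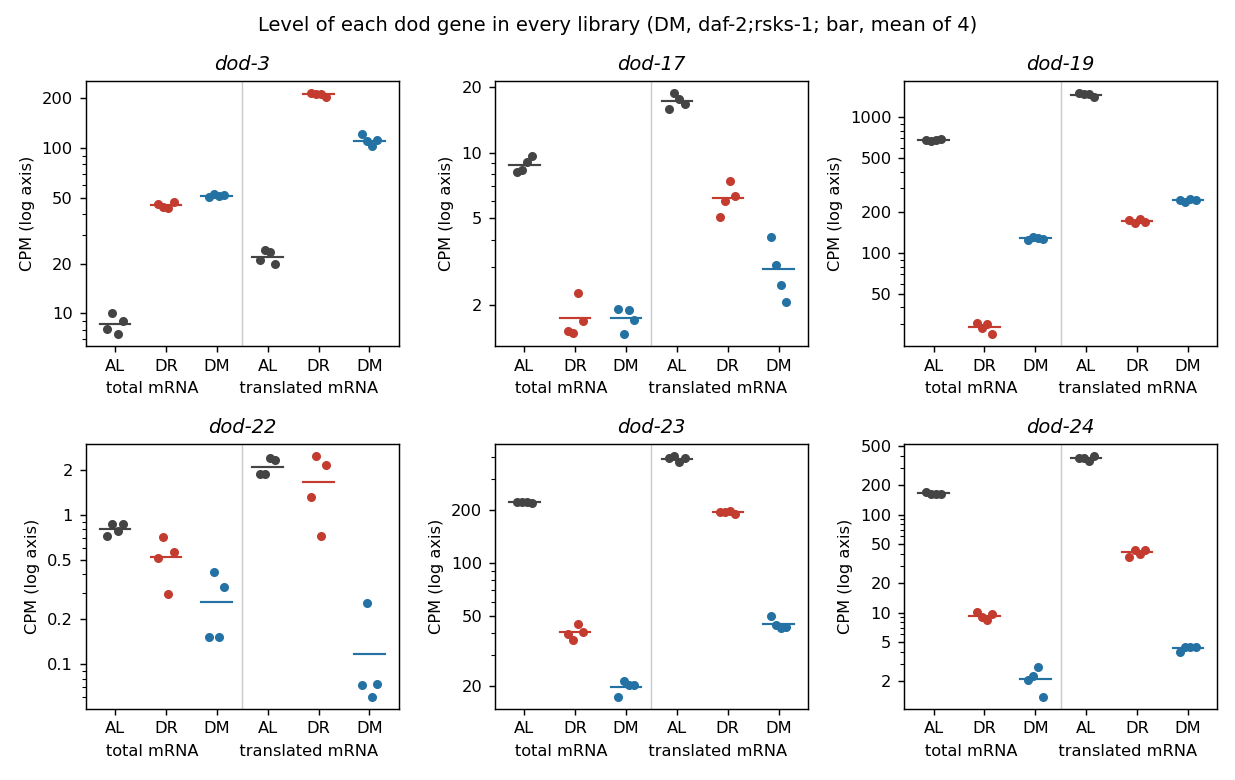
Level of each of the 6 dod genes in all 24 libraries, in CPM on a log axis that differs between panels; points are libraries, bars the mean of 4, and DM the daf-2;rsks-1 mutant. dod-3 is the 1 gene whose DR and mutant libraries lie above AL in both pools, and dod-24 falls from 161 to 169 CPM in total mRNA of AL worms to 1.39 to 2.82 CPM in the mutant.

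In the direct comparison of DR worms with the mutant, then, *dod-23* and *dod-24* were called higher and *dod-19* lower in total mRNA, and *dod-3* and *dod-17* were not called. For all genes tested, 5.03% were called higher and 9.91% lower, or 6.24% and 13.8% with the filter used for *dod-17*. In translated mRNA, *dod-23* and *dod-24* were called higher and none of the 5 genes counted lower, against 8.32% and 8.62% of all genes, or 9.51% higher with the lower filter. Libraries of DR worms lay above those of the mutant without overlap for *dod-23* and *dod-24* in total mRNA, as they did for 41.6% of all genes, and below for *dod-3* and *dod-19*, as for 39.6%. In translated mRNA they lay above for *dod-3*, *dod-17*, *dod-23* and *dod-24* and below for *dod-19*, as for 36.2% and 36.1% of all genes. The median log2 difference of all genes tested was 0.01 in total and −0.01 in translated mRNA. Scaled by plain CPM, the latter moved to −0.42, and the split of all calls in translated mRNA from 694 higher and 719 lower to 323 and 1538. Relative to that median, which takes out such a shift by construction, *dod-3* was at 0.93, *dod-17* at 1.0, *dod-19* at −0.49, *dod-23* at 2.09 and *dod-24* at 3.12.

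**Figure D2:**
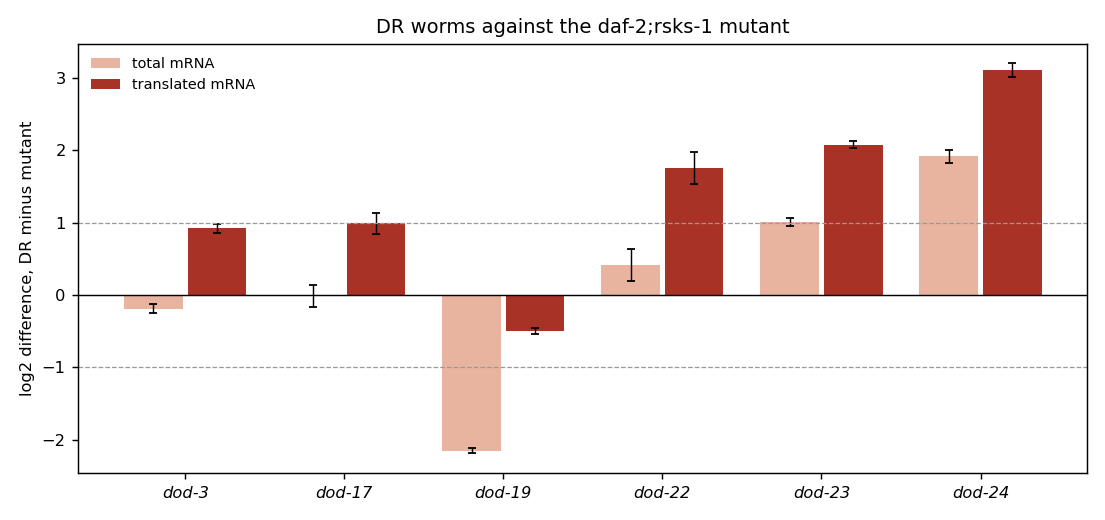
Log2 difference of DR worms minus the daf-2;rsks-1 mutant for each dod gene in total and in translated mRNA; error bars are SE of the limma fit and dashed lines mark 2-fold. For every gene the translated bar lies above the total bar, and dod-19 alone is below 0 in both.

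Within each condition, the translated libraries were compared with the total ones. In AL worms, translated minus total mRNA was between 0.82 and 1.31 on the log2 scale, with *dod-3*, *dod-19* and *dod-24* called higher, where 4.8% of all genes were. The call of *dod-19* was lost with plain CPM (0.97) and with scaling by the tested genes (0.976). Under DR it was 2.21 for *dod-3*, 1.58 for *dod-17*, 2.58 for *dod-19*, 1.02 for *dod-22*, 2.24 for *dod-23* and 2.09 for *dod-24*. All 5 genes counted were called higher under DR, where 16.8% of all genes were, or 15.1% with the lower filter. The value of *dod-22*, from 5 to 22 reads in translated libraries, ranged from 0.768 with a pseudocount of 1 to 1.75 with edgeR. In the mutant it was 1.10 for *dod-3*, 0.58 for *dod-17*, 0.93 for *dod-19*, −0.30 for *dod-22*, 1.17 for *dod-23* and 0.90 for *dod-24*. Of the 5, *dod-3* and *dod-23* were called there, against 4.53% of all genes, also without the library that stood apart (1.06 and 1.12). *dod-24* passed 2-fold with scaling by the tested genes (1.003), a pseudocount of 0.1 (1.03), edgeR (1.05) and without total replicate 3 (1.02), and *dod-19* with scaling by the tested genes (1.02) and median-ratio factors (1.03).

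Differential polysome association (DPAR) is the difference of these differences. For DR against the mutant it was 1.11 ± 0.09 for *dod-3*, 1.0 ± 0.21 for *dod-17*, 1.65 ± 0.06 for *dod-19*, 1.33 ± 0.31 for *dod-22*, 1.07 ± 0.07 for *dod-23* and 1.18 ± 0.13 for *dod-24* (log2, SE). The 5 genes counted were all called higher, with adjusted p from 2.47e-25 for *dod-19* to 8.01e-05 for *dod-17* (limma). Of all genes, 5.29% were called higher, or 5.68% with the lower filter, and 2.46% lower. Such calls were not particular to the dod genes. Of lists described below, 6 of 11 tested intestinal pathogen response genes were called higher, with a median of 1.3. So were 3 of 6 genes known to fall with reduced insulin signalling (1.12). Among genes known to rise it was 5 of 16 (0.47), and among intestine markers 3 of 10 (0.58). These lists held no lower call. No tested germline and oocyte, muscle, epidermis or neuron marker was called higher. *dod-17* sat on the 2-fold limit and fell under it, to between 0.875 and 0.994, without total replicate 1, 2 or 4 or translated replicate 3 or 4 of DR worms, and without total replicate 1 or 3 or translated replicate 3 or 4 of the mutant. Without the translated library that stood apart, DPAR was 1.15 for *dod-3*, 1.16 for *dod-17*, 1.65 for *dod-19*, 1.12 for *dod-23* and 1.15 for *dod-24*. The count of calls also depended on the scaling. Scaled by plain CPM, the median of all genes moved from 0.04 to −0.30, the split of all calls from 441 higher and 205 lower to 180 and 669, and of the 5 genes *dod-19* was called. Scaled by the reads of the tested genes, the median moved to −0.11, the split to 305 and 366, and *dod-19* and *dod-24* were called. Relative to the median of all genes, DPAR was 1.08 for *dod-3*, 0.97 for *dod-17*, 1.62 for *dod-19*, 1.04 for *dod-23* and 1.15 for *dod-24*.

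For DR against AL, *dod-19* and *dod-23* were called with higher polysome association, at 1.47 ± 0.06 (adjusted p = 1.33e-23, limma) and 1.42 ± 0.07 (adjusted p = 4.14e-19), against 3.88% of all genes. *dod-3* was at 0.91, *dod-24* at 0.88 and *dod-17* at 0.65, all under 2-fold, and *dod-22* was at 0.03 ± 0.31. With edgeR *dod-24* reached 1.025. For the mutant against AL, the 5 genes counted lay between −0.35 and 0.35 and none was called, where 1.22% of all genes were called lower, or 1.25% with the lower filter. Without the library that stood apart they lay between −0.505 and 0.296. *dod-22* was at −1.29 ± 0.31, a value that rests on 7 reads in translated libraries of the mutant. The ribosomal RNA share differed most from AL in the translated libraries of DR worms. The composition factors differed most in those of the mutant, at 1.1017 to 1.1561 against 0.8929 to 0.9259 in AL worms. The part of either in these values was not tested.

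**Figure D3:**
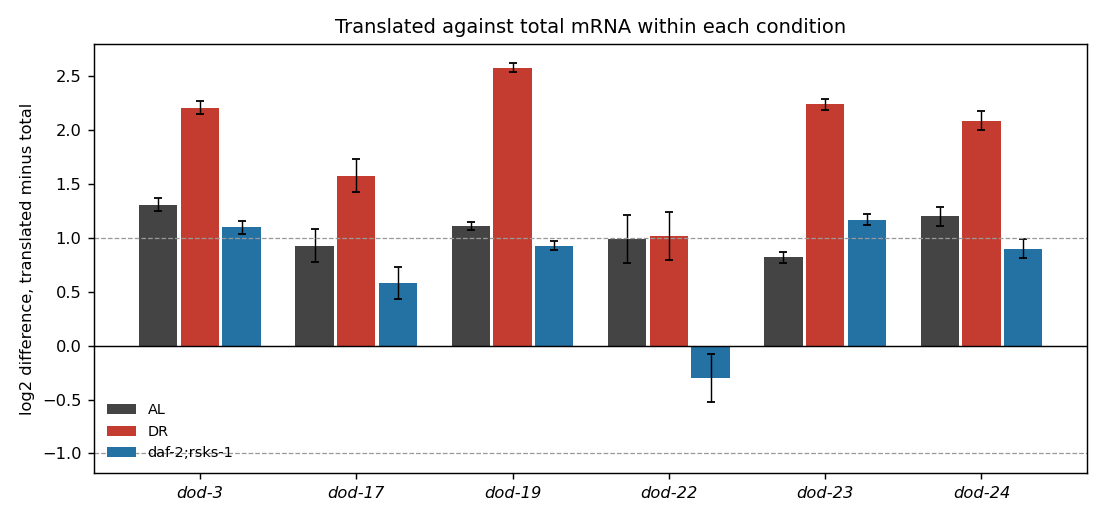
Log2 difference of translated minus total mRNA within AL, DR and the daf-2;rsks-1 mutant for each dod gene, with SE of the limma fit; dashed lines mark 2-fold. The DR bar is the highest of the 3 for every gene, although for dod-22 it differs from AL by 0.03 with an SE of 0.31.

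AL worms are shared by the next comparisons, so each is given by its own values. Under DR, total mRNA rose 5.0-fold for *dod-3* (log2 difference 2.32 ± 0.06) and fell 23.5-fold for *dod-19* (−4.55 ± 0.04), 16.9-fold for *dod-24* (−4.08 ± 0.09), 5.38-fold for *dod-23* (−2.43 ± 0.05) and 4.16-fold for *dod-17* (−2.06 ± 0.15). *dod-22* was at −0.38 ± 0.22. This made 1 call higher and 4 lower, against 3.57% and 8.2% of all genes, or 8.77% lower with the filter used for *dod-17*. Translated mRNA rose 9.38-fold for *dod-3* and fell 8.45-fold for *dod-19*, 9.14-fold for *dod-24*, 2.65-fold for *dod-17* and 2.01-fold for *dod-23*, against 7.04% and 8.18% of all genes, or 9.76% lower with that filter. The last of these was lost without AL replicate 2 (−0.991) or DR replicate 4 (−0.999), and under 3 other settings. From the lowest value of all genes tested, *dod-19* was in place 6 and *dod-24* in place 17 for total mRNA.

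In the mutant, total mRNA rose 5.72-fold for *dod-3* (log2 difference 2.51 ± 0.06) and fell 64-fold for *dod-24* (−6.0 ± 0.09), 10.8-fold for *dod-23* (−3.44 ± 0.05), 5.28-fold for *dod-19* (−2.40 ± 0.04) and 4.13-fold for *dod-17* (−2.05 ± 0.15). *dod-24* had the lowest log2 difference of the 8342 genes tested. *dod-22* was at −0.80 ± 0.22, at −1.40 with a pseudocount of 0.1 and at −1.56 with edgeR. Of all genes, 4.52% were called higher and 3.22% lower, or 3.61% lower with the filter used for *dod-17*. Translated mRNA rose 4.96-fold for *dod-3* and fell 78.7-fold for *dod-24*, 8.51-fold for *dod-23*, 5.97-fold for *dod-19* and 5.27-fold for *dod-17*, and *dod-22* was at −2.09 ± 0.22. This made 1 call higher and 4 lower among the 5 genes counted, also without the library that stood apart, against 4.89% and 6.2% of all genes, or 6.15% lower with the same filter.

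**Figure D4:**
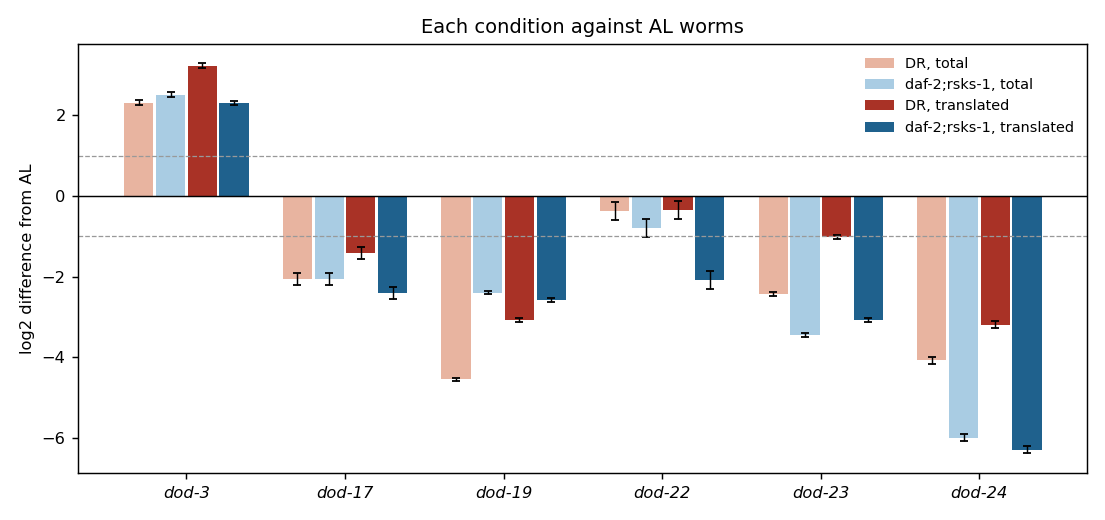
Log2 difference from AL worms of DR worms and of the daf-2;rsks-1 mutant, in total and translated mRNA, with SE of the limma fit; dashed lines mark 2-fold and all comparisons share the AL libraries. dod-3 is above 0 and the other 5 genes are below 0 in all 4 comparisons, with dod-19 lower under DR and dod-23 and dod-24 lower in the mutant. For dod-22 the DR values are small and rest on few reads, at −0.376 in total and −0.345 in translated mRNA. The latter was −0.527 to −0.097 when a library was left out, and neither was called.

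The rank of the 6 genes by level per kb of exon in total mRNA changed with the condition. AL worms had the order *dod-19* at 489, *dod-23* at 297, *dod-24* at 142, *dod-3* at 20.6, *dod-17* at 7.73 and *dod-22* at 0.645 CPM per kb. Under DR the order was *dod-3* at 107, *dod-23* at 54.7, *dod-19* at 20.5, *dod-24* at 8.05, *dod-17* at 1.54 and *dod-22* at 0.414 CPM per kb. In the mutant it was *dod-3* at 123, *dod-19* at 92.5, *dod-23* at 26.9, *dod-24* at 1.84 ± 0.51, *dod-17* at 1.54 ± 0.18 and *dod-22* at 0.209 CPM per kb, and of these neighbours *dod-24* and *dod-17* did not differ beyond their spread. *dod-3* thus moved from the fourth place to the first in both. Summed, the 6 genes made up 1090 CPM of total mRNA in AL worms, 126 CPM under DR and 205 CPM in the mutant, and *dod-19* held 62.9%, 22.8% and 63.1% of that sum.

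Over the 24 libraries, the log2 levels of *dod-23* and *dod-24* had a Pearson correlation of 0.965, those of *dod-17* and *dod-23* of 0.954 and those of *dod-17* and *dod-24* of 0.938. *dod-3* was negatively related to the other 5, between −0.158 and −0.533. These libraries fall into 6 groups and 2 pools, so the values describe the group means and not single worms. By the same measure, the genes most like *dod-3* among those tested were *eif-3.B* (0.9942), a translation initiation factor subunit, and *ftn-1* (0.9856), a ferritin. The level of *ftn-1* was 14.5 CPM in AL worms, 94 CPM under DR and 67.9 CPM in the mutant in total mRNA. The genes most like *dod-17* were *lipl-5* (0.9868), a lipase, and F14H12.3 (0.9831), those most like *dod-19* F35E12.6 (0.9916) and F54E2.1 (0.991), those most like *dod-23* *srlf-7* (0.9922) and *valv-1* (0.9902), and those most like *dod-24* K12H4.7 (0.9929) and *clec-66* (0.9917), which encodes a C-type lectin. The likeness was lower for *dod-22*, with Y73E7A.1 (0.9409) and *hpo-34* (0.9253).

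*dod-24*, *dod-22* and *dod-17* lie on 1 stretch of chromosome IV, as coding genes 2502, 2509 and 2512 of 3131 in order, while *dod-19* and *dod-3* are on V and *dod-23* is on II. Of 34 other genes with the clone names of these 3, 12 had at least 1 CPM in 4 libraries. F55G11.4, the immediate neighbour of *dod-17*, had 132 ± 1.55 CPM of total mRNA in AL worms, 8.12 ± 1.27 CPM under DR and 227 ± 2.98 CPM in the mutant (SD, n = 4). It was 26.6-fold lower in DR worms than in the mutant (log2 difference −4.73 ± 0.06, adjusted p = 1.78e-40, limma), opposite in sign to *dod-24*. Its translated mRNA was at 12.2 ± 1.17 CPM under DR and 501 ± 15 CPM in the mutant. *irg-6*, a gene of the response to pathogens at the other end of the stretch, was likewise low under DR, at 0.163 ± 0.156 CPM, and at 5.30 ± 0.411 CPM in the mutant. K10D11.5 was at 4.70 ± 0.329 and 4.43 ± 0.284 CPM, a difference of 0.08 ± 0.10 (adjusted p = 0.488). With the lower filter, 1 of the 12 was called higher and 5 lower in total mRNA, beside 6.24% and 13.8% of all genes.

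**Figure D5:**
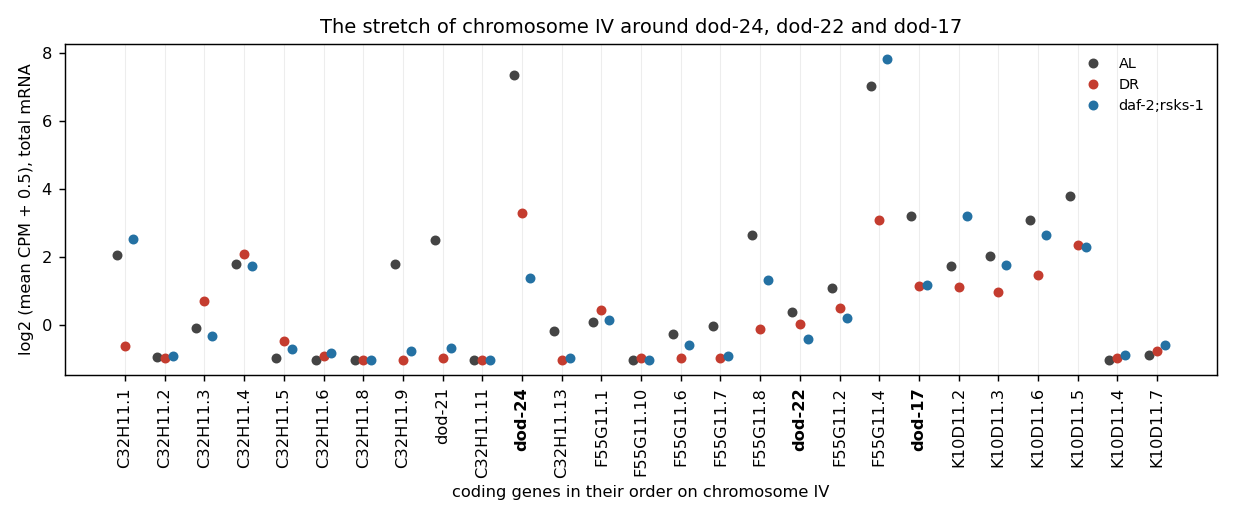
Mean level in total mRNA, as log2(CPM + 0.5), of the coding genes in their order along the stretch of chromosome IV that holds dod-24, dod-22 and dod-17 (bold), in AL, DR and daf-2;rsks-1 worms; each point is the mean of 4 libraries. dod-24 is lowest in the mutant, and F55G11.4 is lowest under DR and highest in the mutant.

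The other 4 dod genes of the table gave a mixed picture. *dod-6*, like *dod-3* known to rise in *daf-2* mutants, was at 60.5 ± 0.805 CPM in total mRNA of AL worms, 121 ± 3.57 CPM under DR and 737 ± 9.31 CPM in the mutant. DR worms held 6.07-fold less of it than the mutant (log2 difference −2.60 ± 0.03, adjusted p = 2.23e-40, limma), where *dod-3* differed by 1.14-fold. *dod-20* was at 5.23, 4.29 and 0.603 CPM in AL, DR and mutant worms, and was called higher in DR worms than in the mutant (2.13 ± 0.20, adjusted p = 8.02e-13). *dod-18* was at 18, 21.5 and 12.5 CPM and not called, and it shares 308 bases with genes on the opposite strand, whose reads the unstranded libraries cannot separate. *dod-21*, near *dod-24* and with the same coding length of 1083 bases, had 243 reads over the 4 total libraries of AL worms, 1 read under DR and 7 reads in the mutant. The sequences of *dod-21* and *dod-24* were not compared, so whether reads were split between them is not known. Polysome association of these 4 genes was tested with the lower filter. For DR against the mutant, 0 were called higher and 1 lower, with a median log2 difference of −0.17. Of all 13327 genes, 757 were higher and 402 lower. For DR against AL, 0 were higher and 2 lower, with a median of −0.78, beside 548 and 376 of all genes. The values of *dod-21* rest on 1 read in each pool under DR.

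Of the genes of insulin signalling and its transcription factors, 2 of 11 were higher in DR worms than in the mutant in total mRNA, *rsks-1*, which is mutated in the latter, and *sgk-1*, a kinase (log2 difference 1.09 ± 0.07), and none was lower, beside 5.03% and 9.91% of all genes. The level of *daf-16* was 159 ± 4.1 CPM in AL worms, 146 ± 1.71 CPM under DR and 159 ± 2.54 CPM in the mutant. That of *pqm-1* was 51.9 ± 1.54, 53.6 ± 1.55 and 37.3 ± 2.0 CPM, lower in the mutant than in DR worms without overlap but by less than 2-fold. In translated mRNA, *pqm-1* was 2.03-fold higher in DR worms than in the mutant (1.02 ± 0.05, adjusted p = 6.63e-22, limma) and *daf-16* was not called (−0.05 ± 0.04). The call of *pqm-1* sat on the 2-fold limit, in a comparison whose all-gene median moved from −0.01 to −0.42 with plain CPM. It was not tried under other scalings or without the library that stood apart. Of the 11 genes, 3 were called higher and none lower in this pool, beside 8.32% and 8.62% of all genes.

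Among 16 tested genes known to rise with reduced insulin signalling, 8 were lower and 1 higher in DR worms than in the mutant in total mRNA, with a median log2 difference of −1.11, beside 9.91% lower and 5.03% higher of all genes and a median of 0.01. The lysozyme gene *lys-7* (−4.86 ± 0.03) and the metallothionein gene *mtl-1* (−4.34 ± 0.06) lay lowest, and *icl-1* of the glyoxylate cycle highest (1.69 ± 0.04). *dod-3*, at −0.19, was thus nearer to 0 than the median of that list. Among 6 tested genes known to fall, 2 were higher, *ins-7*, an insulin-like peptide (3.15 ± 0.10), and *pept-1*, the intestinal peptide transporter (2.28 ± 0.09), and 2 were lower, the metallothionein gene *mtl-2* (−1.31 ± 0.06) and the nuclease gene *nuc-1* (−1.39 ± 0.04). The median of that list was 0.05 in total and 1.38 in translated mRNA, where 5 were higher and none lower, beside 8.32% and 8.62% of all genes. Of 11 tested intestinal pathogen response genes, 7 were lower in DR worms and none higher, beside the same 9.91% and 5.03% of all genes, with K08D8.5 (−3.82 ± 0.07) and C17H12.8 (−3.70 ± 0.03) lowest, a median of −1.56 and *irg-1* at 0.75 ± 0.08.

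Markers of cell types moved with these comparisons. The summed level of the 10 intestine markers was 1640 to 1710 CPM in total mRNA of AL worms, 1630 to 1690 CPM under DR and 715 to 757 CPM in the mutant. In translated mRNA it was 2320 to 2550, 3470 to 3790 and 978 to 1030 CPM. Of the 10, 3 were called higher and 1 lower in DR worms than in the mutant in total mRNA, beside 5.03% and 9.91% of all genes, among them *cpr-1* (3.45 ± 0.05) and *pept-1* higher and *ges-1* (−2.75 ± 0.07) lower. In translated mRNA 5 were higher and 1 lower, beside 8.32% and 8.62% of all genes. The summed germline and oocyte markers were 10100 to 10500, 7450 to 7680 and 6730 to 7120 CPM in total mRNA, with none of 10 called between DR and mutant, from *puf-5* (0.65 ± 0.03) to *pgl-1* (−0.42 ± 0.03). Of body wall muscle markers, 2 of 6 were higher in DR worms, *tni-3* (1.96 ± 0.09) and *mup-2* (1.0 ± 0.05). The call of *mup-2* sat on the 2-fold limit and was not tried under other settings. The shares of all genes given above for each pool also stand beside this count and the next ones. Of epidermis markers, 3 of 6 were tested, *col-19* (1.48 ± 0.05) was higher and *sqt-3* (−2.77 ± 0.09) and *grd-3* (−3.97 ± 0.13) were lower, and none of 8 neuron markers was called. In translated mRNA, 4 of 6 muscle markers and 1 of 8 neuron markers were higher, 2 of 10 germline and oocyte markers were lower, and of the 3 epidermis markers 1 was higher and 2 were lower. The part of these shifts in the dod levels was not tested.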

How the data were processed

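Total and polysome-associated mRNA of AL and DR wild-type worms and of the *daf-2;rsks-1* mutant were measured in 24 libraries, 4 for each of 6 groups, mapped to groups by their titles. The authors aligned reads with TopHat to WS220, counted reads for each gene with HTSeq (version 0.6.1 per the labels), and used edgeR for normalization. The deposited signal is CPM, the reads of a gene over the reads of its library times a TMM composition factor. Reads were recovered from the smallest step of each library, and 100% of values were whole within 0.05 reads. The 19740 rows with no reads stayed in the table. Names, types and exon lengths came from Ensembl release 115, which matched 44380 of 45461 rows. No coordinates or sequences are given, since the builds differ.

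Differences were fitted with limma (version 3.58.1, R 4.3.3, trended variance) on log2(CPM + 0.5) over all libraries in 6 groups, for 12 comparisons, with Benjamini-Hochberg adjustment over 8342 coding genes with a mean of at least 8 CPM. *dod-17* and *dod-22* came from the same fit of 13327 coding genes with at least 1 CPM in 4 libraries. Alternatives were 3 other scalings, other pseudocounts (0.1 and 1), other filters, all gene types, edgeR's quasi-likelihood test (version 4.0.16) on recovered reads, the compared groups alone, a replicate block and leaving out each library. The script was tested on simulated data with 200 changed genes. Replicates were biological per the study's methods. The lowest Spearman correlation within a group was 0.9905. No pair of libraries agreed within sampling noise (lowest chi-square per degree of freedom 1.25), and translated replicate 1 of the mutant differed most from its replicates. Within the other 5 groups the value was 1.25 to 2.7, not far above the 1 of sampling noise alone. SE and adjusted p thus reflect read sampling in large part, and little spread between worm populations. The genes named were the 6 dod genes, all other dod genes, genes sharing a clone name with *dod-17*, *dod-22* or *dod-24*, the 2 genes most correlated with each of the 6, and the 2 largest changes in each direction of each list between DR and mutant total mRNA. The genes and lists were chosen with earlier results of these data known.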

Additional observations from a re-analysis of the deposited data

Results flagged for a closer look

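Of 36 sets of 4 libraries of the 6 genes, 2 held a library farther from the rest than Dixon's critical value for 4 samples, which chance gives in 5% of sets. *dod-22* was at 0.259 CPM in translated mRNA of mutant replicate 2, against 0.0606 to 0.074 CPM in the other 3. These values were 4 reads against 1 read in each of the other 3, which differed only in depth. Dixon's critical value does not hold for such tied counts, so this flag says little. *dod-24* was at 3.98 CPM in translated mRNA of mutant replicate 1, against 4.43 to 4.48 CPM in the other 3.

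The change from total to translated mRNA differed between conditions in an interaction test (limma, 2-fold and adjusted p under 0.05) in at least 1 pair of conditions. *dod-22*, tested only through its high translated libraries of N2 worms, is given as a value. Between DR worms and the mutant the log2 difference was 1.11 for *dod-3*, 1.0 for *dod-17*, 1.65 for *dod-19*, 1.33 for *dod-22*, 1.07 for *dod-23* and 1.18 for *dod-24*. Between DR and AL worms it was 1.47 for *dod-19* and 1.42 for *dod-23*. Between the mutant and AL worms it was −1.29 for *dod-22*.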

How the results depend on the processing

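Counts here include *dod-22*. Of the counts of dod genes called, 505 values under the alternatives stayed within 1.5 times the main count and 11 moved. Of the log2 differences of single dod genes, 1474 kept their direction and their side of the threshold, 38 fell under it, 22 passed it and 14 turned sign. Other filters, all gene types, the compared groups alone and the replicate blocks leave a log2 difference unchanged by construction. They can move a call only through its adjusted p, so these totals overstate how far the values were tried. In total mRNA of DR worms against the mutant, 1 gene in place of 2 was called higher with plain CPM, median-ratio factors, scaling by the tested genes, a pseudocount of 1 and edgeR, since *dod-23* was then at 0.939, 0.996, 0.923, 0.989 and 0.925. Leaving out a library gave 1 to 2. Translated against total mRNA of the mutant gave 4 calls in place of 2 when scaled by the tested genes. For DR against the mutant, polysome association gave 2 calls with plain CPM and 3 with scaling by the tested genes, in place of 6. *dod-22*, whose filter favours such a call, was among them each time. For the mutant against AL, *dod-22* was the only lower call, and it was lost with a pseudocount of 1. *dod-17* lay under 2-fold in 12 of the alternatives for DR against the mutant, 9 of which left out a library, with values of 0.875 to 0.994 there.

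Signs turned only where the main value was not called. For *dod-17* in total mRNA of DR worms against the mutant, the log2 difference was −0.118 to 0.043 when 1 library was left out, with 4 of these values above 0, beside −0.01. For polysome association of DR against AL, *dod-22* was at −0.064 with plain CPM, −0.011 with a pseudocount of 1 and −0.151 to 0.278 without 1 library, beside 0.03. For the mutant against AL, *dod-19* was at 0.006 with plain CPM and 0.043 with scaling by the tested genes, and *dod-3* at 0.01 with the latter. The cause was not tested.

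Over all genes, plain CPM moved the calls for the mutant against AL from 408 higher and 517 lower to 793 and 263 in translated mRNA, from 377 and 269 to 480 and 202 in total mRNA, and from 44 and 102 to 118 and 28 for polysome association. For DR against AL they moved from 587 and 682 to 472 and 852 in translated mRNA and from 324 and 149 to 203 and 284 for polysome association. For translated against total mRNA they moved from 400 and 936 to 153 and 1212 in AL worms and from 1403 and 1325 to 876 and 2011 under DR, and in the mutant median-ratio factors moved 378 and 800 to 598 and 603. Without a filter, DR against the mutant gave 873 higher and 1922 lower in total mRNA, in place of 420 and 827, and 1316 and 1746 in translated mRNA, in place of 694 and 719, and edgeR called 336 and 961, and 688 and 778.

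No pairing of the samples by replicate number was detected. Deviations from group means correlated between −0.098 and 0.083 for total and translated libraries of the same number and condition. Across conditions they correlated between −0.249 and 0.138, with 0 of 12 and 1 of 24 above 0.1. Chi-square per degree of freedom was 1.25 to 2.7 within 5 of the groups, which left little spread to correlate. These values therefore cannot show that the samples were unpaired. With the replicate block, 420 genes were called higher and 827 lower for DR against the mutant in total mRNA, 2 dod genes higher and 1 lower, and no count of dod genes moved. Each replicate number occurs once in every group, so the block leaves each log2 difference unchanged and these counts say little about pairing. *dod-22* had 1 to 22 reads per library, so that its differences are limited by counting.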
